A study of Mus musculus with 16 samples.

Results

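The genes examined here encode proteins of the mitochondrial ribosome, the respiratory chain, ATP synthase and mitochondrial import, with a few enzymes that handle isocitrate and 2-oxoglutarate. They were chosen by symbol, from the families Mrpl, Mrps, Nduf, Sdh, Uqcr, Cox, Atp5, Coq, Timm, Tomm, Chchd, Mtch, Mfn, Opa1, Immt, Idh, Aco, Pdh, Pdk and Ogdh, a rule that uses no measured value. The m6A peak table held 56 such GeneIDs (55 symbols) among 4943 genes, and 63 of its 7069 merged peaks lay on them. Cox17 was listed under 2 GeneIDs with the same peak and was counted once below. The source cells were thioglycolate-elicited peritoneal macrophages (PMs) of WT mice and of Adap-/- mice, which lack the adaptor ADAP (gene Fyb1). They received mock treatment or LPS (1 μg/ml, 6 h), which made 4 groups of 2 replicates: WT mock, WT LPS, Adap-/- mock and Adap-/- LPS. From every replicate came 1 input library and 1 anti-m6A immunoprecipitate (IP), so the libraries numbered 16. In MeRIP-seq, RNA fragments that carry N6-methyladenosine are captured with an antibody, and a peak's ratio of IP to input follows the modification of that stretch of RNA. The study asked how ADAP deficiency alters m6A and gene expression in the LPS response.

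Mitochondrial ribosomes translate the few proteins encoded in mitochondrial DNA, all of which belong to the respiratory chain or to ATP synthase. All other subunits, the assembly factors and the ribosomal proteins themselves are made in the cytosol from nuclear genes and are brought in through the TOM and TIM translocases. In macrophages, LPS is known to shift energy metabolism from respiration towards glycolysis and to redirect tricarboxylic acid (TCA) cycle intermediates, including the diversion of cis-aconitate to itaconate by Acod1.

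By role, the 55 symbols comprised 15 large-subunit (Mrpl) and 8 small-subunit (Mrps) proteins of the mitochondrial ribosome, and 10 complex I genes, of which 2 (Ndufaf1 and Ndufaf2) encode assembly factors. They also held the complex II assembly factors Sdhaf1 and Sdhaf2, 2 complex III subunits (Uqcrb and Uqcrh), 7 cytochrome c oxidase (Cox) genes and 2 ATP synthase subunits (Atp5mc3 and Atp5mf). The remaining symbols were Coq4 of coenzyme Q synthesis, the import genes Tomm22, Tomm70, Timm17a, Timm44 and Chchd4, the fusion GTPase Mfn2, and the enzymes Idh1 and Ogdh. No Pdh, Pdk, Aco, Mtch, Opa1 or Immt gene and no mitochondria-encoded gene was listed, and because the table holds only genes with a peak, this says nothing about their expression. Most symbols (50) had 1 peak, 4 had 2 (Mrpl27, Mrps26, Sdhaf2 and Cox10), and Idh1 had 5. A peak of 10 symbols was also listed under another GeneID, which for Cox17 was its own second GeneID. For the others, among them Sdhaf1, Mrpl17, Mrpl40, Mrpl53 and Ndufa13, the reads could also belong to an overlapping gene.

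The input libraries held 2121313 to 4325961 reads on peaks and the IP libraries 5728590 to 19030373. Expression was taken as the input reads summed over a gene's peaks, scaled to the library size (CPM), so a level describes the peak regions and is not comparable between genes. After the filter on low counts, 53 symbols remained among 4742 tested genes, Mrps21 and Mrpl37 having been left out. Fyb1, which checks the genotype, had 244 and 257 CPM in WT mock, 349 and 377 in WT LPS, 46.7 and 36.9 in Adap-/- mock, and 41.5 and 35.7 in Adap-/- LPS PMs. Of 10 macrophage markers 8 were in the table, with summed levels of 8779 to 10668 CPM over the 8 input libraries, most of it from Cd68 and Lyz2. Single markers differed in Adap-/- against WT PMs after LPS: Fcgr1 and Mertk were lower (−1.28 and −0.32) and Tlr4 and Cd14 higher (0.59 and 0.49). Csf3r was the only listed neutrophil marker (123 to 388 CPM), Cd22 the only B cell marker (32.9 to 148 CPM) and Pdgfra the only fibroblast marker (27.4 to 70.8 CPM). Csf3r was higher and Cd22 lower after LPS in both genotypes, and the part of these markers in the results below was not tested. The labels do not say whether replicates came from separate mice or cultures, so p-values measure only the spread between these samples, which may be technical. In such bulk RNA, fewer cells of a type and less RNA per cell cannot be told apart.

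The peaks of the 2 large groups of genes lay at opposite ends of the coding sequence. Of 25 peaks on mitoribosome genes, 20 (80%) covered the stop codon and 2 (8%) the start codon without the stop. Of 16 peaks on structural subunits of the respiratory chain and ATP synthase, 13 (81.2%) covered the start codon and 0 the stop codon. Assembly factors and cofactor genes (10 peaks, among them those of Sdhaf1, Cox10 and Cox15) held the stop codon in 5 (50%) and the start codon in 2 (20%). Over all 7069 peaks, the shares were 32% at stop codons and 13.3% at start codons. Peaks inside the coding sequence alone made up 7.94% of the 63 peaks and 31.4% of all peaks. The peak of Uqcrh, for example, ran from 115927176 to 115932202 on chromosome 4 (GRCm39, minus strand) over the 5'UTR and start codon, whereas that of Mrpl58 was a stretch at the stop codon on chromosome 11 from 115301552 to 115301627 (plus strand). Listed spans went from 50 to 21150 bases with a median of 200, because a listed peak can cross introns. These shares describe where the merged peaks lie and were not tested, since peaks are not replicates.

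**Figure D1:**
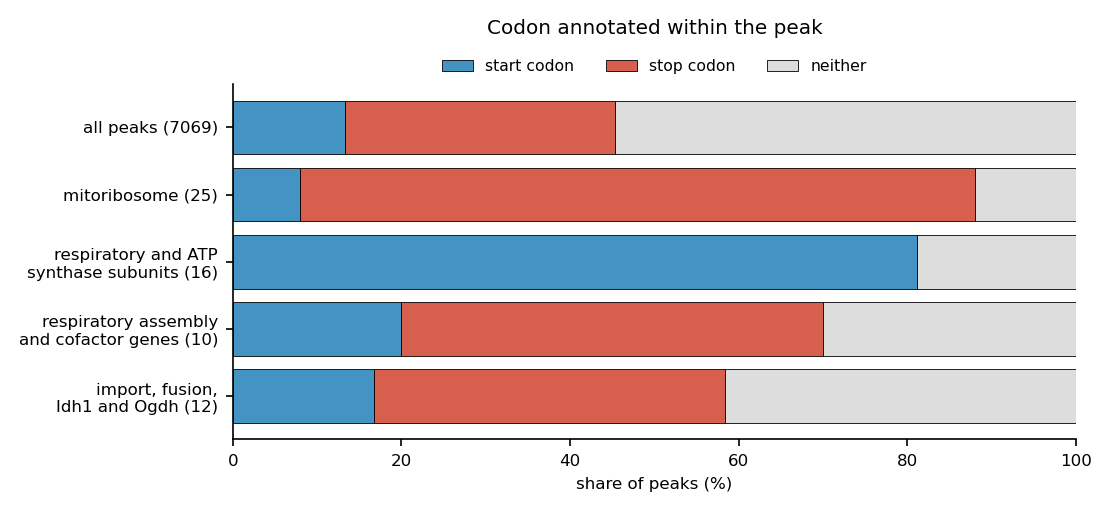
Share of peaks (percent, horizontal axis from 0, number of peaks in brackets) that cover the start codon without the stop codon, the stop codon, or neither, for mitoribosome genes, structural respiratory subunits, assembly and cofactor genes, import and other genes, and all 7069 peaks. Stop codons hold 80% of the mitoribosome peaks, and start codons 81.2% of the structural-subunit peaks.

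Promoters were available for 46 of the 55 symbols from RefSeq (GRCm38.p6, which differs from the GRCm39 build of the peaks), each spanning the bases just before and after a listed gene start. Nuclear genes for mitochondrial proteins are known to be controlled by GABPA, a factor of the ETS family, and by NRF1. The ETS-type letters CCGGAAG, searched on both strands, occurred in 16 of the 46 (34.8%), against 20.7% of 3083 symbols of the peak table and 9.93% of 27025 symbols in all. The NRF1 core CGCATGCG occurred in 4 (8.7%, against 4.28% and 2.07%), the YY1 letters AAGATGG in 9 (19.6%, against 8.79% and 7.28%), and CAAGGTCA, read by estrogen-related receptors, in 3 (6.52%, against 1.39% and 1.76%). The E-box CACGTG occurred in 3 (6.52%, against 12.5% and 8.09%). The ETS-type and YY1 letters can overlap by their last and first bases and were each counted on their own, and a match is a description of letters and not a binding site. The 150 bases before the start of 5 genes whose expression is described below are shown 5' to 3' on the gene's strand, with every ETS-type match or NRF1 core in capitals. Uqcrh (chr4:116075071-116075220, minus strand), Mrpl58 (chr11:115403602-115403751, plus strand) and Mrps26 (chr2:130563607-130563756, plus strand), all lower in mock-treated Adap-/- PMs, carry 1 ETS-type match each. Mrpl53 (chr6:83108958-83109107, plus strand) carries 2, and Mrpl32 (chr13:14613038-14613187, minus strand) carries 2 NRF1 cores. Mrpl53 and Mrpl32 were higher after LPS in both genotypes.
Uqcrh: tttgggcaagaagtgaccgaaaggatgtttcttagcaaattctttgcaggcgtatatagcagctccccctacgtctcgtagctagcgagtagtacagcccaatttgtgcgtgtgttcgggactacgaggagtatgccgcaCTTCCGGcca
Mrpl58: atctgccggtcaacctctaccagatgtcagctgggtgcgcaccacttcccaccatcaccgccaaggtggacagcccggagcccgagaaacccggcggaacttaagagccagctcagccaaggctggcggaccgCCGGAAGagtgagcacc
Mrps26: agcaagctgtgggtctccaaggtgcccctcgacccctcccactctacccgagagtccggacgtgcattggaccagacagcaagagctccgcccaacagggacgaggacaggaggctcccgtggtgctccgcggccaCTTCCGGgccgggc
Mrpl53: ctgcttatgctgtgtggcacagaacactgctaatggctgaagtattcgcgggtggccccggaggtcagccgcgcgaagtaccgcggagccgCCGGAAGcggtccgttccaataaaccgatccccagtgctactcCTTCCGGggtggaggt
Mrpl32: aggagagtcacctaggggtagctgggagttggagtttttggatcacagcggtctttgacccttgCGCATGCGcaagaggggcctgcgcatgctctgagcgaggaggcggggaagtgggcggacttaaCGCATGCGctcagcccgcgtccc
Of 15 tested genes with the ETS-type letters, 5 were lower in mock-treated Adap-/- than in WT PMs (33.3%, against 24.5% of the 53 genes and 8.65% of all) and 0 were higher. With LPS in WT PMs, 4 were higher (26.7%, against 30.2% of all) and 5 lower (33.3%, against 28.9%), shares near those of all genes.

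To see how LPS affected these genes in normal PMs, WT LPS was compared with WT mock. Idh1 and Ogdh, which act on isocitrate and 2-oxoglutarate, 3 complex I subunits, Sdhaf1, Uqcrh, Cox7a2l, Cox6b1 and 5 mitoribosome genes fell. The cytochrome c oxidase assembly genes Cox10, Cox15 and Cox17, the translocase subunit Timm17a and 4 mitoribosome genes rose. Of the 53 tested genes, 14 were lower (26.4%, against 28.9% of all tested genes) and 8 were higher (15.1%, against 30.2%) at an adjusted p below 0.05. Their median log2 fold change was −0.23, and that of all genes −0.03. Under upper-quartile scaling, which moved the median of all genes to −0.32, the median was −0.51 and the split was 26 lower and 5 higher. Calls over all genes rose as well, to 3083 from 2806 in either direction, and their split by direction is not given here. With LPS in Adap-/- PMs, 11 were lower (20.8%, against 26% of all) and 7 higher (13.2%, against 28.5%), with medians of −0.11 and −0.03. There, upper-quartile scaling gave 21 lower and 4 higher, with a median of −0.39 against −0.31 for all genes. Over all genes, calls in either direction rose to 2887 from 2585. In both genotypes together, 9 were called lower (17%, against 22.3% of all genes) and 7 higher (13.2%, against 25.8%).

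Idh1, the cytosolic NADP-dependent isocitrate dehydrogenase, carried most of the change in reads. Its input level was 2070 and 2578 CPM in WT mock and 155 and 168 CPM in WT LPS PMs. In Adap-/- PMs it was 1931 and 1879 CPM without and 239 and 230 CPM with LPS. The groups did not overlap, and the LPS level was higher in both Adap-/- libraries than in both WT libraries. The decrease was 14.4-fold in WT (log2 fold change −3.85, standard error 0.13, adjusted p = 2.97e-13 by edgeR) and 8.13-fold in Adap-/- PMs (−3.02, 0.12, 3.75e-12). The response differed between the genotypes by 0.83 on the log2 scale (standard error 0.17, adjusted p = 0.0181). It was the only called gene among the 53 for this difference (1.89% higher and 0 lower, against 0.358% and 1.29% of all genes). The call was lost when any of the 6 libraries of WT LPS, Adap-/- mock or Adap-/- LPS was left out, with differences of 0.77 to 0.89. Over all 8 fits without 1 library, the difference ranged from 0.68 to 0.99. After LPS, Idh1 was 1.45-fold higher in Adap-/- than in WT PMs (adjusted p = 0.00698), a call that was lost without WT LPS replicate 1 or Adap-/- LPS replicate 1. Summed over all 53 tested genes, input was 4910 and 5728 CPM in WT mock and 2996 and 2718 CPM in WT LPS PMs. Without Idh1 the sums were 2840 and 3151 CPM, and 2841 and 2550 CPM, so the groups lay close together.

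Ogdh, the first component of the 2-oxoglutarate dehydrogenase of the TCA cycle, had 68.3 and 69.2 CPM in WT mock and 37 and 41.6 CPM in WT LPS PMs. In Adap-/- PMs it had 67.2 and 70.6 CPM without and 50.8 and 53.2 CPM with LPS. It fell in both genotypes (log2 fold change −0.81, adjusted p = 4.36e-05, and −0.41, adjusted p = 0.00966), the latter call being lost by DESeq2 and without Adap-/- mock replicate 2 or Adap-/- LPS replicate 1. The 2 LPS groups did not overlap, but the difference between genotypes after LPS, 0.41, had an adjusted p of 0.0518.

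**Figure D2:**
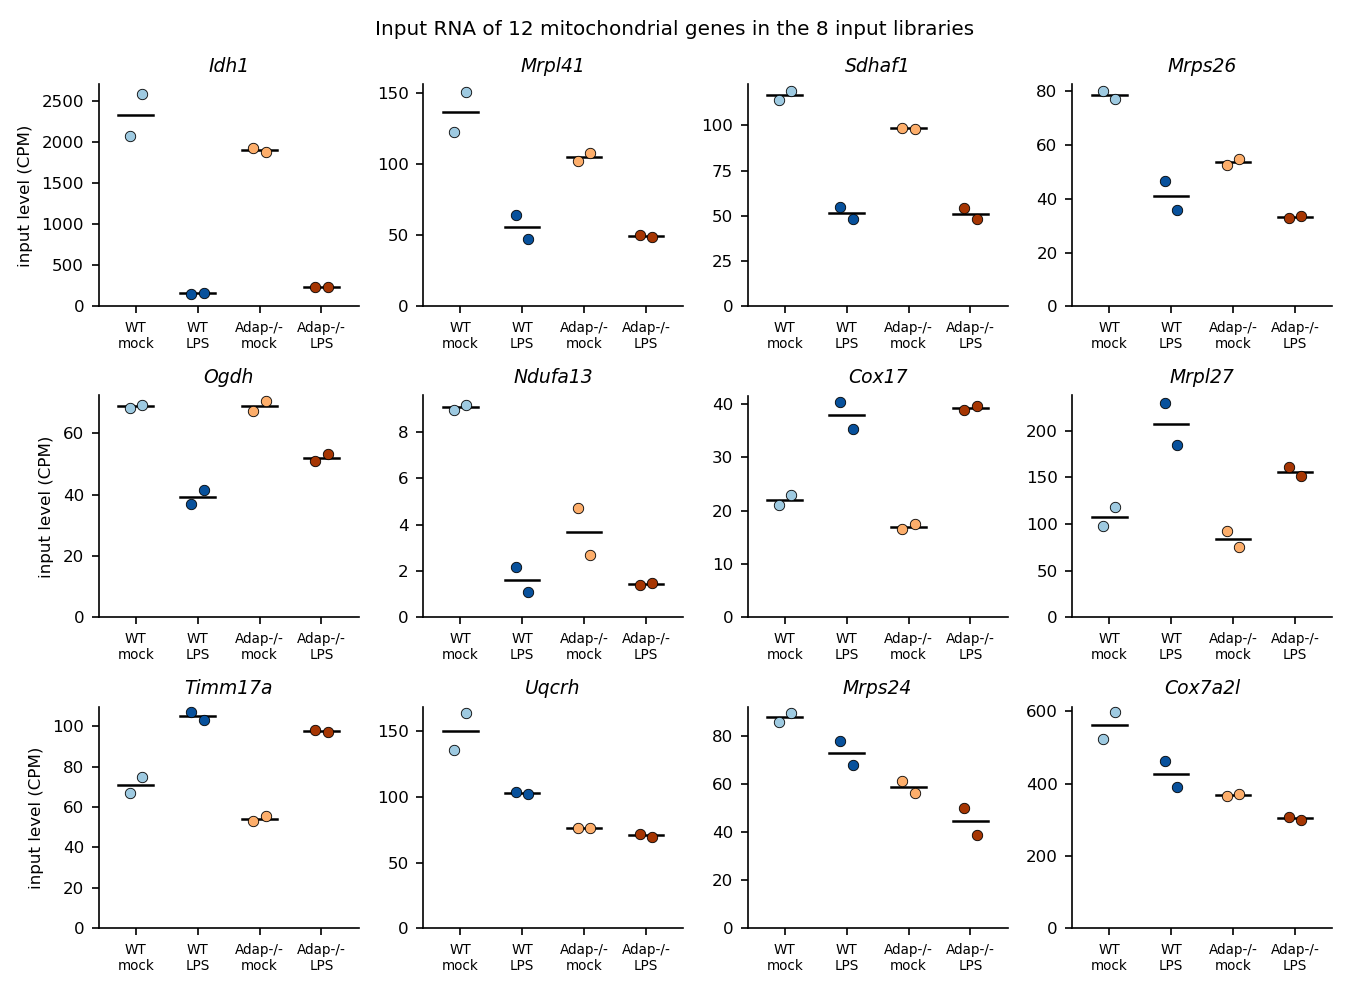
Input level (CPM, vertical axis from 0) of 12 named genes in the 8 input libraries, 1 panel per gene, with each point 1 library and each line the mean of the 2 replicates. Idh1 lies between 1879 and 2578 CPM in the 4 mock libraries and between 155 and 239 CPM in the 4 LPS libraries.

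Among the respiratory chain, ATP synthase and coenzyme Q genes, 7 of 24 fell (29.2%, against 28.9% of all genes) and 3 rose (12.5%, against 30.2%) with LPS in WT PMs, the median being −0.30. In Adap-/- PMs 3 fell (12.5%, against 26%) and 2 rose (8.33%, against 28.5%). Sdhaf1, which helps to assemble the iron-sulfur subunit of complex II, had 114 and 119 CPM in WT mock and 54.7 and 48.4 CPM in WT LPS PMs. Its Adap-/- values were 98.4 and 98.1 CPM without and 54.2 and 48.1 CPM with LPS, so LPS separated the groups in both genotypes. It fell 2.25-fold in WT (adjusted p = 3.26e-07) and 1.91-fold in Adap-/- PMs (adjusted p = 5.25e-06), on a peak that another gene shares. The related factor Sdhaf2, which attaches flavin to complex II, gave log2 fold changes of −0.02 and −0.05, neither of them called.

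For complex I, which takes electrons from NADH, 3 of 10 genes fell (30%, against 28.9% of all genes) and 0 rose in WT PMs, with a median of −0.50. Ndufa13 had 8.95 and 9.16 CPM in WT mock and 2.18 and 1.08 CPM in WT LPS PMs, a log2 fold change of −2.42 (adjusted p = 0.000318). In Adap-/- PMs it had 4.72 and 2.67 CPM without and 1.41 and 1.46 CPM with LPS (−1.34, adjusted p = 0.0517). These are low levels on a peak shared with other genes. Ndufb10 had 5.88 and 10.8 CPM in WT mock and 3.73 and 2.17 CPM in WT LPS PMs (−1.46, adjusted p = 0.011), and the call was lost without WT mock replicate 2 or WT LPS replicate 2. Ndufs5 gave −0.80 (adjusted p = 0.0315), a call lost by DESeq2 and when any 1 of the 4 WT libraries was left out. The assembly factor Ndufaf1 fell in Adap-/- PMs, from 13.9 and 17.7 to 7.05 and 9.48 CPM (−0.96, adjusted p = 0.00729). In WT PMs, its values of 14.3 and 16.2 CPM without and 13.7 and 12.3 CPM with LPS differed by −0.23 (adjusted p = 0.477). The call in Adap-/- PMs was lost without Adap-/- mock replicate 2 or Adap-/- LPS replicate 1.

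Of the 7 cytochrome c oxidase genes, 3 rose (42.9%, against 30.2% of all genes) and 2 fell (28.6%, against 28.9%) with LPS in WT PMs. Cox15, Cox17 and Cox7a2l were called in both genotypes. The products of Cox10, Cox15 and Cox17 supply the enzyme with heme A or copper. Cox17, a copper chaperone, had 21 and 22.9 CPM in WT mock and 40.4 and 35.4 CPM in WT LPS PMs. It rose from 16.5 and 17.5 to 38.9 and 39.7 CPM in Adap-/- PMs. The increases were 1.73-fold (adjusted p = 0.000748) and 2.31-fold (adjusted p = 1.69e-05). Cox15, which acts in heme A synthesis, rose from 30.4 and 21.6 to 50.3 and 45.5 CPM in WT PMs (0.88, adjusted p = 0.000582) and from 31 and 28.9 to 43.4 and 54 CPM in Adap-/- PMs (0.69, adjusted p = 0.0034). Cox10, which makes heme O, rose in WT PMs (0.84, adjusted p = 0.0129) and gave 0.28 in Adap-/- PMs (adjusted p = 0.422), and its WT call was lost without WT mock replicate 1 or 2 or WT LPS replicate 1. In contrast, Cox7a2l, which takes part in respiratory supercomplexes, fell in both genotypes (−0.39, adjusted p = 0.004, lost without WT LPS replicate 2, and −0.28, adjusted p = 0.0324). The structural subunit Cox6b1 fell in WT PMs (−0.29, adjusted p = 0.0439) and gave 0.10 in Adap-/- PMs (adjusted p = 0.5). The structural subunits Cox5a and Cox5b gave 0.01 and −0.18 in WT PMs (adjusted p = 0.988 and 0.468).

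Mitoribosome genes moved in both directions, with 4 of 21 higher (19%, against 30.2% of all genes) and 5 lower (23.8%, against 28.9%) in WT PMs. In Adap-/- PMs 4 were higher (19%, against 28.5%) and 6 lower (28.6%, against 26%). Mrpl41 of the large subunit had 123 and 151 CPM in WT mock and 64.3 and 47.4 CPM in WT LPS PMs, and fell 2.43-fold (adjusted p = 1.1e-06). In Adap-/- PMs it went from 102 and 108 to 49.9 and 48.5 CPM, a 2.13-fold decrease (adjusted p = 1.02e-05). Mrps26 of the small subunit had 80.1 and 77.1 CPM in WT mock and 46.6 and 35.8 CPM in WT LPS PMs (−0.92, adjusted p = 2.58e-05). Adap-/- PMs showed a decrease too, from 52.5 and 54.9 to 32.7 and 33.5 CPM (−0.70, adjusted p = 0.000729). The opposite was seen for 4 large-subunit genes. Mrpl27 rose from 97.7 and 118 to 230 and 185 CPM in WT PMs (1.93-fold, adjusted p = 1.71e-05) and from 92.4 and 75.5 to 161 and 151 CPM in Adap-/- PMs (1.86-fold, adjusted p = 4.34e-05). Mrpl32 rose from 49.9 and 54.2 to 93.2 and 83.1 CPM in WT PMs (1.70-fold, adjusted p = 6.05e-05) and from 37 and 42 to 61.8 and 63.8 CPM in Adap-/- PMs (1.59-fold, adjusted p = 0.00043). Mrpl53 and Mrpl54 were the other two, with log2 fold changes of 0.55 and 0.33 in WT and of 0.49 and 0.50 in Adap-/- PMs, calls that upper-quartile scaling ended in both genotypes (values of 0.04 to 0.26). The WT call of Mrpl54 was also lost by DESeq2 and in 6 of 8 fits without 1 library.

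Of the 5 import genes, Timm17a, a channel subunit of the TIM23 presequence translocase, was the only one called with LPS. This is 20% higher, against 30.2% of all genes in WT and 28.5% in Adap-/- PMs. Timm17a gave the values below. It had 66.8 and 74.9 CPM in WT mock and 107 and 103 CPM in WT LPS PMs, and 53 and 55.6 CPM without and 98.2 and 97.3 CPM with LPS in Adap-/- PMs. The groups did not overlap in either genotype, and the increases were 0.57 (adjusted p = 0.000432) and 0.85 (adjusted p = 1.06e-05). In WT PMs the receptors Tomm70 and Tomm22 gave 0.07 and −0.84 (adjusted p = 0.662 and 0.132), the motor tether Timm44 0.04, and Chchd4, which oxidises cysteines of imported proteins, 0.22 (adjusted p = 0.164). The outer-membrane fusion GTPase Mfn2 gave −0.16 in WT and −0.22 in Adap-/- PMs, without a call.

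**Figure D3:**
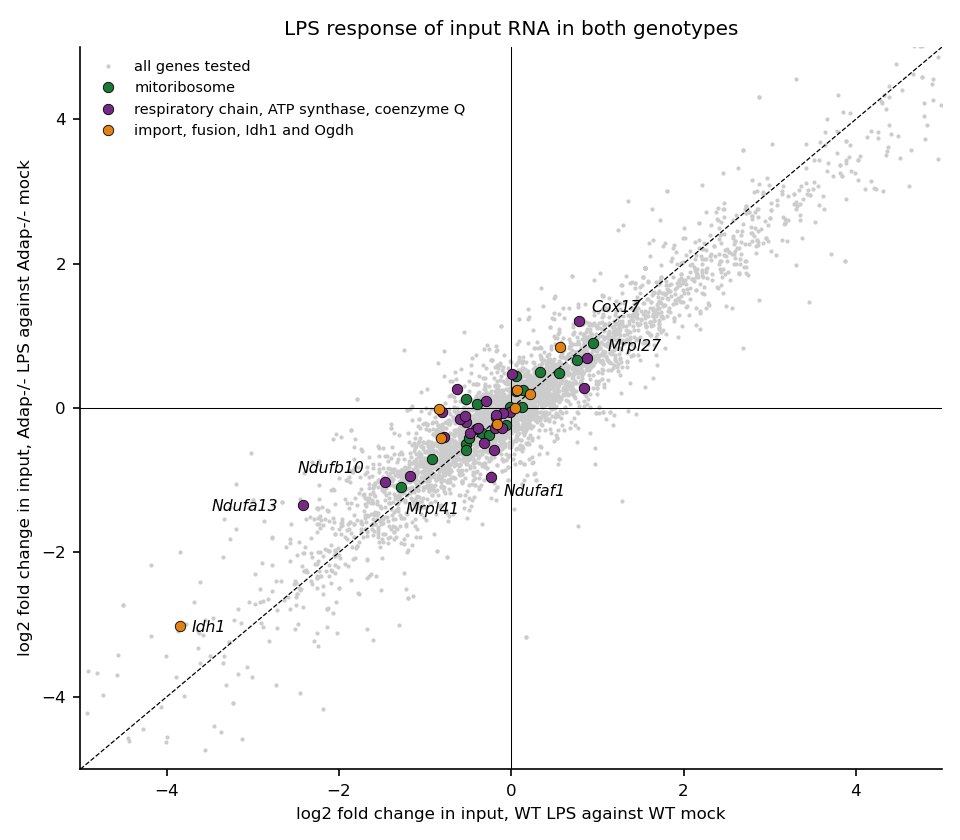
LPS against mock log2 fold change in WT (horizontal axis) and Adap-/- PMs (vertical axis) from input reads. Grey points are all tested genes and coloured points the genes described here by role, the dashed line marks equal responses, and both axes end at 5 in each direction, so genes beyond are not drawn. Idh1 lies at −3.85 and −3.02, far from the other coloured points.

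The effect of ADAP deficiency without LPS was then examined by comparing Adap-/- mock with WT mock PMs. The genes lay predominantly lower in Adap-/- PMs, across the mitoribosome, the respiratory chain and the import genes. The median log2 fold change was −0.36, against 0.01 for all tested genes, and 46 of 53 (86.8%) had a value below 0, against 49.1% of all. At an adjusted p below 0.05, 13 were lower (24.5%, against 8.65% of all genes) and 0 were higher (against 8.71%). Both Adap-/- libraries lay below both WT libraries for 39 genes (73.6%, against 29.9% of all), and above them for 1 (1.89%, against 29.8%). Relative to the mean over the 8 input libraries, the median gene stood at 0.23 and 0.34 in WT mock, 0.15 and 0.02 in WT LPS, −0.09 and −0.13 in Adap-/- mock and −0.20 and −0.16 in Adap-/- LPS libraries on the log2 scale. The lower level was thus seen in every Adap-/- library, while the same median over all genes lay between −0.01 and 0.02. The count of calls depended on single libraries, with fewer calls without WT mock replicate 2 or either Adap-/- mock replicate. Without Adap-/- mock replicate 2, the share of the 53 genes called in either direction was below that of all genes. The median stayed between −0.43 and −0.26 when 1 library was left out. DESeq2 called 7, against 557 of all genes.

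Uqcrh, the hinge protein of complex III, had the lowest adjusted p of this comparison among the 53 genes. It had 136 and 164 CPM in WT mock and 76.4 and 76.5 CPM in Adap-/- mock PMs, a difference of 1.96-fold (log2 fold change −0.97, standard error 0.12, adjusted p = 7.88e-05). Leaving out any library kept this call. Cox7a2l had 523 and 598 CPM in WT mock and 367 and 372 CPM in Adap-/- mock PMs (1.52-fold, adjusted p = 0.00106). Atp5mf, a subunit of the membrane part of ATP synthase, had 6.14 and 8.89 CPM in WT mock and 3.67 and 2.67 CPM in Adap-/- mock PMs (−1.24, adjusted p = 0.0447). This was a low level, and the call was lost by DESeq2, with the replicate block and in 5 of 8 fits without 1 library. Ndufa13 was also lower (−1.30, adjusted p = 0.0261), a call lost by DESeq2 and without WT mock replicate 1 or 2 or Adap-/- mock replicate 2. The 24 respiratory genes held 5 lower calls (20.8%, against 8.65% of all genes) and 0 higher calls (against 8.71%), with a median of −0.36. Start codons held 57.7% of the peaks of these genes, and 18.4% of all genes with start-codon peaks alone were called lower.

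The mitoribosome held 7 lower calls among 21 genes (33.3%, against 8.65% of all genes) and 0 higher (against 8.71%), with a median of −0.38. Mrpl58, a peptidyl-tRNA hydrolase that has become a ribosomal protein, had 35 and 46.3 CPM in WT mock and 27.8 and 21.8 CPM in Adap-/- mock PMs (−0.71, adjusted p = 0.0144), and the call was lost without WT mock replicate 2 or Adap-/- mock replicate 2. Mrpl40 had 42 and 54.7 CPM in WT mock and 29.1 and 32.5 CPM in Adap-/- mock PMs (−0.64, adjusted p = 0.0135), on a peak shared with C22orf39, and the call was lost without WT mock replicate 2 or either Adap-/- mock replicate. Mrps24 had 85.7 and 89.7 CPM in WT mock and 61.4 and 56.1 CPM in Adap-/- mock PMs (−0.58, adjusted p = 0.00592). The replicates of these 3 genes did not overlap. Mrpl12, Mrps26, Mrpl54 and Mrpl17 were the remaining calls, at −0.55, −0.55, −0.46 and −0.41. Among import genes, Timm17a was lower at −0.38 (adjusted p = 0.0348 by edgeR). Besides Uqcrh, most genes called in this comparison without a stated loss also lost their call without Adap-/- mock replicate 2.

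After LPS, the genes were again predominantly lower in Adap-/- than in WT PMs. The median log2 fold change was −0.26, against −0.01 for all genes, and 43 of 53 (81.1%) lay below 0, against 51.1% of all. At an adjusted p below 0.05, 10 were lower (18.9%, against 9.78% of all genes) and 1, Idh1, was higher (1.89%, against 6.03%). The replicates of the genotypes did not overlap for 26 genes with lower values (49.1%, against 29.8% of all) and for 3 with higher values (5.66%, against 26.8%). The 11 calls became fewer without WT LPS replicate 1, either Adap-/- LPS replicate or either Adap-/- mock replicate. Without WT LPS replicate 1 or Adap-/- LPS replicate 2, the share of the 53 genes called in either direction was below that of all genes. DESeq2 made 5 calls, against 514 over all genes. The median remained between −0.38 and −0.15 when 1 library was left out.

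Mrps24 had 77.7 and 68 CPM in WT LPS and 50.2 and 39 CPM in Adap-/- LPS PMs, a 1.62-fold difference (−0.70, adjusted p = 0.00347). Uqcrh had 104 and 102 CPM in WT LPS and 71.9 and 69.6 CPM in Adap-/- LPS PMs (1.46-fold, adjusted p = 0.00726). Cox7a2l had 462 and 391 CPM in WT LPS and 309 and 298 CPM in Adap-/- LPS PMs (1.41-fold, adjusted p = 0.0049). These replicates did not overlap, and the 3 calls were lost without WT LPS replicate 1 or Adap-/- LPS replicate 2. Mrpl32 was lower at −0.49 (adjusted p = 0.013) and Mrpl40 at −0.62 (adjusted p = 0.0392), both calls being lost by DESeq2, and without WT LPS replicate 1 or either Adap-/- LPS replicate, and that of Mrpl40 also without WT LPS replicate 2 or either Adap-/- mock replicate. Sdhaf2 was lower at −0.41 (adjusted p = 0.0493), a value at the threshold whose call was lost by DESeq2, with upper-quartile scaling and in 6 of 8 fits without 1 library. Of the mitoribosome genes, 7 of 21 were lower (33.3%, against 9.78% of all genes) and 0 higher (against 6.03%). The respiratory chain, ATP synthase and coenzyme Q genes were nearer to all genes, with 3 of 24 lower (12.5%) and 0 higher, at a median of −0.20. Of the 10 complex I genes and the 5 import genes, 0 were called.

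The mock and LPS comparisons of the genotypes contrast different libraries. Their calls are not independent, because they came from the same fit of all 8 input libraries. Cox7a2l, Mrpl12, Mrpl40, Mrps24 and Uqcrh were called lower in Adap-/- PMs in both comparisons (5 of 53 genes, against 4.01% of all genes). Mrpl12, a protein of the ribosomal stalk, had 165 and 189 CPM in WT mock, 128 and 113 in Adap-/- mock, 124 and 128 in WT LPS, and 89.7 and 92.6 in Adap-/- LPS PMs. Its genotype groups did not overlap with or without LPS. In 24 of the 53 genes, all replicates of Adap-/- PMs lay below those of WT PMs in both conditions, compared with 16.3% of all tested genes. The difference between the LPS responses had a median of 0.11 over the 53 genes, against −0.02 over all.

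**Figure D4:**
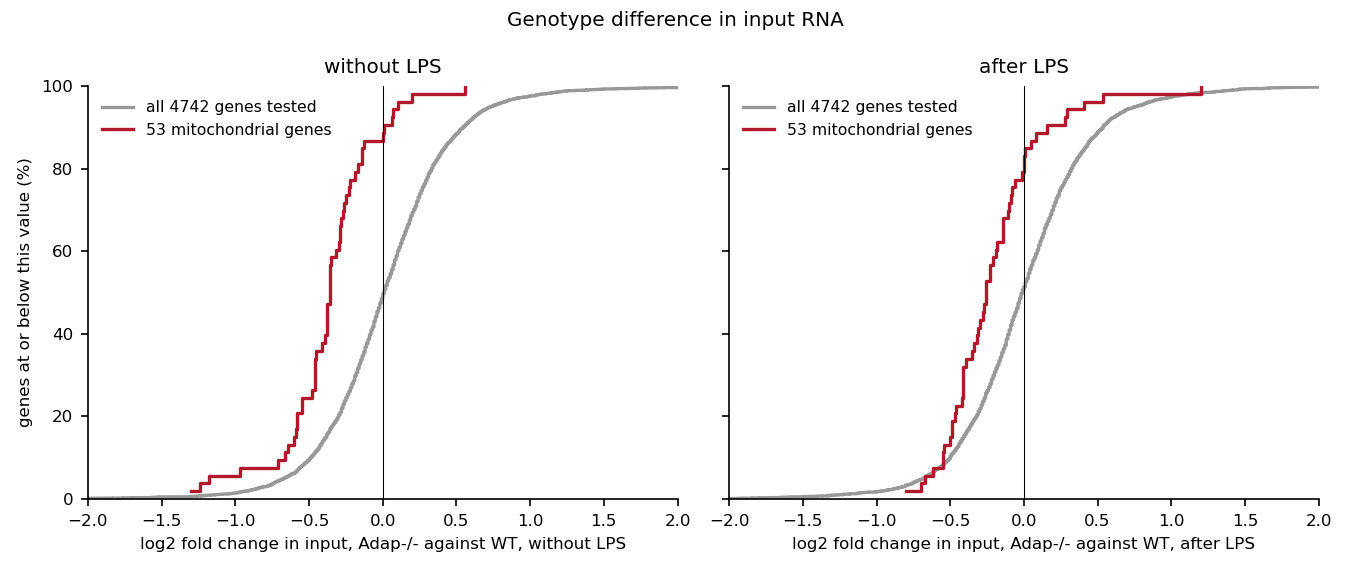
Cumulative share of genes (percent, vertical axis) against the log2 fold change of input reads, Adap-/- against WT, without LPS (left) and after LPS (right), with axes drawn from −2 to 2. The red line of the 53 genes crosses 0 at 86.8% without LPS and 81.1% after LPS, and the grey line of all 4742 tested genes at 49.1% and 51.1%.

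The lower level in mock-treated Adap-/- PMs was also set beside the position of the peaks. Genes with start-codon peaks alone were lower in general: the median over all 429 such genes was −0.22, and that of the 17 described here −0.36. For genes with stop-codon peaks alone, the medians were −0.03 over 1227 genes and −0.36 over the 25 described here. For genes with other or mixed peaks they were 0.06 over 3086 genes and −0.36 over 11. By calls, 2 of the 17 genes with start-codon peaks were lower (11.8%, against 18.4% of all such genes), as were 7 of 25 with stop-codon peaks (28%, against 8.8%) and 4 of the other 11 (36.4%, against 7.23%). After LPS the medians were −0.14 against −0.11 for start-codon peaks, −0.28 against −0.06 for stop-codon peaks and −0.32 against 0.03 for the rest, and the called lower shares were 5.88% against 9.09%, 24% against 10.4% and 27.3% against 9.66%.

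Before the m6A comparison, the IP libraries were checked, because some stood apart from their labels. On 397 other peaks whose input rose with LPS, the IP libraries WT mock replicate 1 and Adap-/- mock replicate 2 held 61.2% and 55.7% of the mean IP level of their own LPS group, whereas the other mock IP libraries held 6.24% and 8.69%. In the mock input libraries the share was 2.29% to 3.6%. On 63 other peaks whose input fell with LPS, the WT LPS IP libraries kept 19.6% and 12.7% of the mock IP level, against 7.77% and 7.5% in Adap-/- LPS, with 6.24% to 6.74% in input. The part of these libraries in the m6A results was not tested. The spread was also wider than in input, with a biological coefficient of variation of 30.6% over peaks against 8.82% over genes.

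The log2 ratio of IP to input, scaled over all 16 libraries so that the average peak lies near 0 on the log2 scale, had a median over the 62 tested peaks of −0.20 and −0.22 in WT mock, 0.04 and −0.09 in WT LPS, −0.16 and −0.36 in Adap-/- mock and −0.27 and −0.27 in Adap-/- LPS libraries. The same median over all peaks was −0.05 to 0.07. With IP and input libraries scaled separately, the values were 0.15 to 0.47, so the sign of this median depends on the scaling. Ratios are therefore described as differences between peaks or groups. Atp5mc3, a c-ring subunit of ATP synthase, had the most captured peak in most libraries, with log2 ratios of 2.32 and 2.90 in WT mock, 3.32 and 3.59 in WT LPS, 4.01 and 2.44 in Adap-/- mock and 4.24 and 3.37 in Adap-/- LPS PMs. At the other end stood the peaks of Idh1, with ratios of −2.36 to −5.49 in the mock libraries. Summed over these peaks, the mock libraries held 77.5 to 557 CPM in IP and 2782 to 3979 CPM in input. Idh1 RNA was thus depleted in these IP libraries and not enriched.

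No peak of these genes passed an adjusted p below 0.05 in any of the 5 comparisons by edgeR, where 0, 0, 1, 0 and 0 of all 7058 peaks did. The numbers at an unadjusted p below 0.05 were 5, 7, 6, 2 and 1 of 62, for LPS in WT, LPS in Adap-/-, genotype with LPS, genotype without LPS, and the difference of the responses. The share of all peaks at this threshold alone is not given here, so these numbers are not read as a result. With an absolute log2 fold change above 1 as well, 5 peaks passed for LPS in WT (8.06%, against 7.82% of all peaks) and 5 in Adap-/- PMs (8.06%, against 7%). Between genotypes, 4 passed with LPS (6.45%, against 4.14%) and 2 without (3.23%, against 1.28%), and 1 passed for the difference of responses (1.61%, against 2.76%). DESeq2 gave 5, 6, 4, 2 and 1 at the same thresholds. Most of these counts were Idh1 peaks, which share 1 transcript: 4 of 5, 2 of 5, 3 of 4, 1 of 2 and 0 of 1. The median change over the 62 peaks was 0.09 with LPS in WT PMs and 0.02 in Adap-/- PMs, close to the 0.10 and 0.05 of all peaks. Adap-/- against WT PMs gave −0.27 with LPS, against 0.01 for all peaks, and −0.17 without the Idh1 peaks.

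The Idh1 peak on chromosome 1 from 65201080 to 65205419 (minus strand, coding sequence) had log2 ratios of −2.36 and −4.49 in WT mock and 0.66 and −0.80 in WT LPS PMs. The Adap-/- ratios were −5.08 and −5.27 without and −3.70 and −3.52 with LPS. Both WT LPS libraries lay above the other 6, and the WT mock replicates differed widely. The change was 3.25 with LPS in WT PMs (adjusted p = 0.204 by edgeR), and that of Adap-/- LPS against WT LPS PMs −3.74 (adjusted p = 0.16). The 3'UTR peak from 65197874 to 65198074 had −2.53 and −4.34 in WT mock, 0.55 and −0.59 in WT LPS, −5.11 and −4.38 in Adap-/- mock and −3.87 and −2.49 in Adap-/- LPS PMs. Without 1 library at a time, the WT LPS change of the coding peak ranged from 2.39 to 4.57 and its genotype difference after LPS from −4.36 to −2.89. Summed over the 5 peaks, IP was 557 and 190 CPM in WT mock, 262 and 126 in WT LPS, 77.5 and 132 in Adap-/- mock and 20.2 and 68 in Adap-/- LPS libraries. Input on the same peaks was 3135 and 3979, 203 and 217, 2854 and 2782, and 312 and 292 CPM in that order. Mean IP thus fell with LPS by a smaller factor than mean input, but the IP levels of WT mock and WT LPS overlapped. The higher mock IP level of each genotype came from a library that stood apart, WT mock replicate 1 or Adap-/- mock replicate 2. Relative to their own mock IP level, the WT LPS IP libraries kept 70.2% and 33.8% of Idh1, with 5.69% and 6.11% in input. The Adap-/- LPS IP libraries kept 19.4% and 65.1%, with 11.1% and 10.4% in input. The peaks that fell with LPS outside these genes were also kept in IP above input in WT LPS, as given above, and whether this bears on Idh1 was not tested.

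Besides Idh1, only Mrpl58 (3 comparisons) and Ndufa13 (2) had a peak at these thresholds in more than 1 of the 5 comparisons. The stop-codon peak of Mrpl58 had log2 ratios of −0.44 and −1.0 in WT mock, −0.73 and −0.89 in WT LPS, −0.69 and 0.09 in Adap-/- mock and −2.11 and −1.66 in Adap-/- LPS PMs. The Adap-/- LPS libraries were lower than the other 6. The change with LPS in Adap-/- PMs was −1.63 (adjusted p = 0.235 by edgeR) and kept its unadjusted call without any 1 library (−2.08 to −1.28). Against WT LPS PMs the difference was −1.12 (adjusted p = 0.556), which became −0.89 and lost its call without Adap-/- LPS replicate 1. The responses differed by −1.56 (adjusted p = 1), which became −1.16 and lost its call without Adap-/- mock replicate 2, an IP library that stood apart.

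The stop-codon peak of Timm17a (chromosome 1, 135229400 to 135229575, minus strand) had ratios of −0.64 and −1.12 in WT mock, −1.08 and −1.25 in WT LPS, −0.89 and −0.68 in Adap-/- mock and −1.62 and −2.84 in Adap-/- LPS PMs. Its change in Adap-/- PMs was −1.32 (adjusted p = 0.312 by edgeR), with the call lost without Adap-/- mock replicate 2 or Adap-/- LPS replicate 2. The start-codon peak of Ndufb10 (chromosome 17, 24943199 to 24943274, minus strand) had ratios of −0.92 and −1.63 in Adap-/- mock and 0.75 and 0.23 in Adap-/- LPS PMs, a change of 1.93 (adjusted p = 0.414) whose unadjusted call was lost in 7 of 8 fits without 1 replicate (1.57 to 2.36). In WT PMs it had −0.03 and −0.86 without and 0.96 and 1.0 with LPS, so LPS libraries lay above mock libraries in both genotypes. These ratios rest on few input reads: 12 and 6 in WT LPS and 14 and 6 in Adap-/- LPS, against 23 to 40 in the mock libraries. Ndufa13 gave 1.64 for Adap-/- against WT without LPS (adjusted p = 1), on the low input counts given above. It ranged from 0.55, without Adap-/- mock replicate 2, to 2.65, without Adap-/- mock replicate 1, and its unadjusted call was lost in 7 of 8 such fits.

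**Figure D5:**
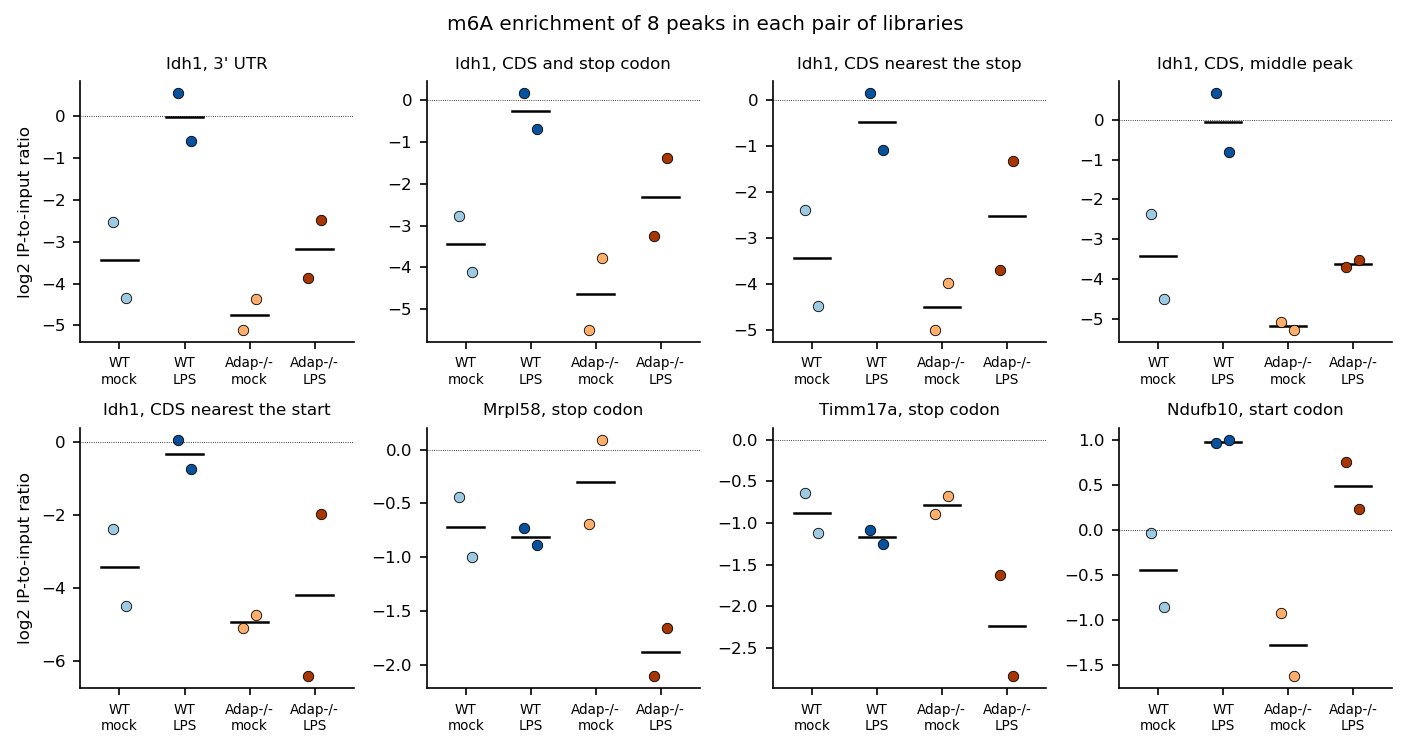
Log2 IP-to-input ratio (vertical axis) of the 5 Idh1 peaks and of the peaks of Mrpl58, Timm17a and Ndufb10, with 1 point per replicate, 1 line at each mean of the 2 replicates, and the 4 groups side by side. Idh1 peaks lie highest in the 2 WT LPS libraries, and the Mrpl58 peak lowest in the 2 Adap-/- LPS libraries.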

How the data were processed

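The authors captured fragmented PM RNA with an m6A antibody and deposited 1 table of raw read counts on peaks merged over all libraries, without normalization. Per the submitters' processing notes, Bowtie2 2.2.8, MACS2 2.1.2, DiffBind 2.8 and GRCm39 were used. All 16 count columns were matched to samples by the labels.

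Lines repeating a peak for several genes were reduced to 7069 distinct peaks. Counts were analysed with edgeR 4.0.16 in R 4.3.3 by its quasi-likelihood test after TMM scaling, with p-values adjusted (Benjamini-Hochberg) over all genes or peaks tested. Low features were removed by filterByExpr (minimum count 10, minimum total 15). Input reads were summed per GeneID and the 8 input libraries fitted with 1 mean per group. For m6A, the IP-to-input ratio was tested per peak in 1 fit of all 16 libraries. Input was called at an adjusted p below 0.05, and m6A at an unadjusted p below 0.05 with an absolute log2 fold change above 1. Standard errors were derived from the F statistic. Steps were tested on simulated data.

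The genes and lists were chosen with earlier results of these data known. Named genes are the 8 called members with the largest and the 8 with the smallest log2 fold changes per LPS comparison and 5 each per genotype comparison, with non-overlapping replicates, up to 4 peaks each way per m6A comparison, all members of small families, and the extremes of each role in WT LPS. Mrpl12, Mrpl17 and Cox6b1, the genes whose promoters are printed and the other comparisons' values of named genes were chosen after their values were seen. Alternatives were DESeq2 1.42.0, other scalings and filters, a replicate block, only the libraries compared, only peaks with 1 gene, a fold threshold, and each replicate left out.

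Across groups, the replicate differences of same-numbered input libraries correlated with r of −0.0744 to 0.164 over genes, so numbers were not taken as pairs. Depth limits Atp5mc3, Atp5mf, Coq4, Mrpl15, Ndufa8, Ndufa12, Ndufa13, Ndufs6, Tomm22 and Uqcrb, whose input levels were below 10 CPM in every library.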

Additional observations from a re-analysis of the deposited data

Results flagged for a closer look

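The LPS response of Idh1 in input differed between the genotypes: the decrease in Adap-/- PMs was smaller than in WT PMs by 0.83 on the log2 scale (edgeR, adjusted p = 0.0181, test of the difference itself). All 4 LPS libraries lay below all 4 mock libraries. The call was lost when any of 6 libraries was left out (0.77 to 0.89), and over all 8 such fits the difference was 0.68 to 0.99.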

How the results depend on the processing

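Members' medians in input were −0.36 to −0.16 (LPS in WT), −0.20 to −0.05 (LPS in Adap-/-), −0.38 to −0.15 (genotype after LPS) and −0.43 to −0.26 (genotype without LPS) when 1 replicate was left out, and kept their sign under every alternative run. Upper-quartile scaling moved them to −0.51 and −0.39 for LPS in WT and in Adap-/- PMs, where the median of all genes moved by a like amount. Calls in input ranged from 15 to 23, 12 to 18, 1 to 11, 2 to 17 and 0 to 1 (the difference of responses) without 1 replicate. With an absolute log2 fold change above 1 they were 5, 3, 0, 2 and 0, and DESeq2 made 5 and 7 in the genotype comparisons. The replicate block gave 21, 18, 11, 13 and 1 calls in input and 5, 4, 5, 1 and 1 in m6A, and crossing the WT mock IP numbers, chosen after seeing the data because of a correlation of −0.101 between same-numbered IP and input, gave 4, 6, 6, 1 and 1. No m6A peak was called at an adjusted p below 0.05 (0 in all 5). Without 1 replicate the unadjusted m6A calls were 3 to 6, 3 to 10, 3 to 9, 0 to 3 and 1 to 5. For LPS in Adap-/- PMs, RLE scaling gave 3 and separate TMM 3, and for genotype without LPS, only the libraries compared gave 4. The cause of these moves was not tested.

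Sign changes in input were found for genes that were not called. For LPS in WT PMs, upper-quartile scaling gave Mrps7 −0.17, Timm44 −0.25, Tomm70 −0.22 and Chchd4 −0.07, at least 10 counts in every input library gave Tomm70 −0.00 and Timm44 −0.03, and DESeq2 and RLE scaling gave Sdhaf2 0.00. Without 1 replicate, the ranges were −0.42 to 0.08 for Mfn2, −0.16 to 0.10 for Sdhaf2, −1.73 to 0.57 for Ndufa8, −0.91 to 0.24 for Uqcrb, −2.67 to 0.45 for Coq4, −0.02 to 0.13 for Tomm70 and −0.07 to 0.10 for Timm44. For LPS in Adap-/- PMs Sdhaf2 ranged from −0.23 to 0.09. Between genotypes after LPS, Sdhaf1 was 0.01 with upper-quartile scaling or only the libraries compared and 0.02 with at least 10 counts, and ranged from −0.10 to 0.08 without 1 replicate. Without LPS, Ogdh was −0.00 with peaks of 1 gene and ranged from −0.03 to 0.04. With separate TMM, the median m6A ratio per library became 0.35 and 0.34 in WT mock, 0.47 and 0.37 in WT LPS, 0.38 and 0.20 in Adap-/- mock, and 0.17 and 0.15 in Adap-/- LPS.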

Other observations

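Mitochondrial genes outside the symbol families were taken from lists of 143 symbols, of which 40 were in the table and 38 were tested. With LPS, 9 were higher (23.7%, against 30.2% of all tested genes) and 15 lower (39.5%, against 28.9%) in WT PMs, and 9 higher (23.7%, against 28.5%) and 12 lower (31.6%, against 26%) in Adap-/- PMs. Between genotypes, 3 were higher and 3 lower in Adap-/- PMs without LPS (7.89% each, against 8.71% and 8.65% of all), the median being −0.14 (log2), and 0 were higher and 1 (Mtif3, −0.45) lower after LPS (2.63%, against 9.78%), the median being −0.03. Acod1, which makes itaconate, had 1910 and 2169 CPM in WT mock, 41743 and 42035 in WT LPS, 2851 and 3310 in Adap-/- mock and 35820 and 36850 in Adap-/- LPS PMs. Its increase was 4.36 in WT and 3.56 in Adap-/- PMs on the log2 scale, a difference of −0.80 (adjusted p = 0.0488 by edgeR), and without LPS it was 0.60 higher in Adap-/- PMs (adjusted p = 0.00709). Cycs, which encodes the electron carrier cytochrome c, rose with LPS in both genotypes (1.12 and 1.37) and was lower in Adap-/- PMs without LPS (−0.68, adjusted p = 0.0124).

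Ucp2, a carrier of the inner membrane, fell from 351 and 327 to 107 and 114 CPM in WT and from 322 and 333 to 103 and 112 CPM in Adap-/- PMs (−1.62 and −1.61). Pink1, a kinase of mitochondrial quality control, fell by 1.82 and by 1.61 on the log2 scale. Of 10 further assembly genes, 5 fell (50%, against 28.9% of all genes) and 2 rose (20%, against 30.2%) in WT PMs, with Tmem126b at −1.65 and Slirp at 1.00. Of 8 regulators of mitochondrial genes, 4 were higher (50%) and 1, Tfeb, lower (12.5%) with LPS in each genotype. The shares of all genes were 30.2% and 28.9% in WT and 28.5% and 26% in Adap-/- PMs. Without LPS, 2 regulators, Gabpa (0.75, adjusted p = 0.00657 by edgeR) and Hif1a (0.59), were higher in Adap-/- PMs (25%, against 8.71%). Of 8 tested glycolysis genes, 4 were higher (50%, against 30.2% of all genes) and 1 lower (12.5%, against 28.9%) with LPS in WT PMs. Hk2 was at 1.91 and Slc2a6 at 3.88, and the lower gene, Aldoa, at −0.70. In Adap-/- PMs 5 were higher (62.5%, against 28.5%) and 2 lower (25%, against 26%), Aldoa (−0.63) and Slc16a3 (−0.50). Slc2a6 was at 2.89 there.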
